A study of Mus musculus with 16 samples.

Results

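The 82 genes described here encode nuclear subunits of the mitochondrial respiratory chain and of the ATP synthase, and they were measured by RNA sequencing in mouse macrophages. They were chosen by symbol from the 43430 genes of the count table: Nduf genes for complex I (37 genes), Sdha to Sdhd for complex II (4), Uqcr genes for complex III (8), Cox4 to Cox8 genes for complex IV (16) and Atp5 genes for complex V (17). Only protein-coding genes were kept, and 10 further symbols that match the pattern are processed pseudogenes and were left out. Ndufa4 is counted with complex I by its symbol, although its protein is known as a subunit of complex IV, and the pattern does not reach Cox4i1 or Ndufab1, which are given among the other genes of the pathway.

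The cells were bone marrow-derived macrophages, phagocytes grown out of marrow of C57BL/6J mice with 20 ng/mL of the macrophage growth factor that the labels call mCSF, and they were harvested on day 6. They were then kept in MEM medium, either complete or lacking serine, and either left untreated or given 100 ng/mL lipopolysaccharide (LPS), a cell-wall product of Gram-negative bacteria, with RNA taken 4 h after LPS. The design crosses the medium with LPS, so there were 4 groups of 4 libraries: untreated with serine, LPS with serine, untreated without serine, and LPS without serine. Whether the 4 replicates of a group came from separate animals or cultures is not stated in the labels, so a p-value here reflects only how much these libraries vary, which may be technical.

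Complex I takes electrons from NADH and complex II, which is also succinate dehydrogenase of the citric acid cycle, takes them from succinate. Both pass them through ubiquinone to complex III, from which cytochrome c carries them to complex IV, where oxygen is reduced. Complex V, the ATP synthase, makes ATP from the proton gradient that complexes I, III and IV build. Macrophages given LPS are known for a shift from respiration toward glycolysis, for accumulating succinate, and for making reactive oxygen species at complex I. Most subunits are encoded in the nucleus and a few in mitochondrial DNA, and NRF1 and the ETS factor GABP are known regulators of many of the nuclear genes.

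Promoter sequences of 66 of the 82 genes were matched by symbol in a RefSeq table of GRCm38.p6 that holds 250 bases before and 50 after each start site. The NRF1 motif, spelled GCGCA, then any base, then GCGC, and searched on both strands, was present in 17 of these 66 promoters (25.8%), against 1402 of 27025 genes in the table (5.19%). By complex it was present in 7 of 32 promoters of complex I, 2 of 3 of complex II, 1 of 5 of complex III, 1 of 13 of complex IV and 6 of 13 of complex V. The ETS motif CCGGAAGT, searched on both strands and able to share only an end base with the NRF1 motif, was present in 5 of the 66 promoters (7.58%) against 4.31% in the table. A match describes the letters only. Stretches of 4 promoters, all upstream of the RefSeq start site and written on the gene's own strand, are shown with the NRF1 matches in capitals. The count table's gene coordinates differ. By them the stretch of Ndufa8 lies wholly, and those of Sdha and Atp5k partly, within the gene. They cover a gene that rose with LPS (Cox6a1), 2 that fell in one medium (Ndufa8 and Atp5k) and one that passed no test (Sdha). In the main fit the calls of Cox6a1 and Ndufa8 were made only when a single library, described below, was left out. That of Atp5k was made only when this library was kept. The stretches lie at chr5:115349056-115349130 (minus strand), chr2:36049339-36049378 (minus strand), chr13:74350241-74350348 (minus strand) and chr5:108434400-108434459 (minus strand), and Cox6a1 and Sdha hold more than one match.
Cox6a1: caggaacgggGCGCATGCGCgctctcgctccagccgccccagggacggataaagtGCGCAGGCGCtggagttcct
Ndufa8: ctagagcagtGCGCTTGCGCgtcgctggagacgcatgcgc
Sdha: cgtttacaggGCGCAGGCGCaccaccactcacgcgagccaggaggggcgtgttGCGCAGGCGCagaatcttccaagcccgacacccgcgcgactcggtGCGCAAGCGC
Atp5k: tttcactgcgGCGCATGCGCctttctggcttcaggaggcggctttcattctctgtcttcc

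Total counts per library ranged from 2871477 to 10043362. The lowest total belongs to replicate 4 of the untreated cells without serine, hereafter the shallow library, with 12900 genes detected where replicates 1 to 3 had 14997 to 16031. Its 20 most counted genes took 23.1% of the total, compared with 14.6% to 17.0% in those 3. All 8 macrophage markers examined were detected, and their sum was 16267 to 28263 CPM over all groups, with the shallow library at 27076 CPM. Lyz2 was the largest part of that sum in every library. In the shallow library the CPM of Lyz2 and Cd14 lay above replicates 1 to 3 of its group, and that of Fcgr1 within their range. Adgre1, Csf1r, Cd68, Itgam and Mertk lay below those replicates, so the high sum does not hold for most of the markers. CPM is a gene's count relative to the size of its library, and the library sizes were set by TMM scaling, which assumes that most genes do not shift. Markers of B, T and erythroid cells summed to at most 0.863 CPM in any library, with 1 of 4, 2 of 4 and 1 of 4 of them at 0 in all libraries. Neutrophil markers summed to 92.2 to 145 CPM in replicate 1 of the 4 groups and to 10.75 to 34.7 CPM in all other libraries. Stromal markers summed to 0.696 to 23.5 CPM and dendritic cell markers to 1.11 to 2.53 CPM before and 8.38 to 15.2 CPM after LPS, and the part of these cells in the results was not tested.

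On the TMM scale the 82 genes together held a similar level in 15 of the 16 libraries, somewhat higher with LPS when same-numbered libraries are compared. Their summed level was 4177, 4704, 4527 and 4541 CPM in replicates 1 to 4 of the untreated cells with serine and 4524, 5102, 5129.9 and 5006 CPM with LPS. Without serine it was 3978, 4485, 4364 and 11609 CPM in untreated cells and 4227, 4883, 4741 and 4710.0 CPM with LPS. The shallow library stands far above all others, and apart from it the largest sum is less than 1.5 times the smallest. Within a medium the sum was higher with LPS in each same-numbered pair, apart from the pair that holds the shallow library. As mean ± SD the sums were 4487 ± 222 and 4941 ± 283 CPM (n = 4) with serine, before and after LPS, and 6109 ± 3673 CPM (n = 4) and 4640.2 ± 286 CPM (n = 4) without it, the former being 4276 ± 265 CPM (n = 3) without the shallow library. As a share of all counts the 82 genes were lower with LPS. With serine they took 0.527% to 0.598% in untreated and 0.376% to 0.439% in LPS-treated libraries. Without serine they took 0.497% to 0.570% in replicates 1 to 3 of the untreated cells, 1.20% in the shallow library and 0.352% to 0.410% with LPS. In bulk RNA, fewer cells that express a gene and less of its RNA per cell cannot be told apart.

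By complex, the sum of complex IV genes was 578, 622, 613 and 617 CPM in untreated cells with serine and 679, 729.8, 784 and 743 CPM with LPS, where every LPS library lies above every untreated one. Without serine the complex IV sum was 538, 606 and 613 CPM in replicates 1 to 3 of the untreated cells, 1901 CPM in the shallow library and 641, 730.5, 749 and 735 CPM with LPS. The LPS libraries without serine again lie above replicates 1 to 3 of their untreated group and below the shallow library. With serine the LPS libraries also lay above the untreated ones for complex III (462 to 531 against 393 to 450.4 CPM) and complex V (1876 to 2112 against 1540 to 1844 CPM), and below them for complex II (441 to 492 against 497 to 535 CPM). Without serine and without the shallow library the LPS range for complex III began at 445.7 CPM, just above the highest untreated library at 445.6 CPM, while the ranges overlapped for complex II and met at 1677 CPM for complex V. Complex I sums did not separate the groups, at 1225 ± 37.6 and 1182 ± 84.4 CPM with serine before and after LPS, 1186 ± 59.6 CPM without serine in the 3 deeper untreated libraries and 1151 ± 72 CPM after LPS. The shallow library stood at 3735 CPM for complex I, 869.9 CPM for complex II, 1038 CPM for complex III and 4066 CPM for complex V. These orders hold on the TMM scale only. As a share of all counts, complex IV took 0.0729% to 0.0792% in untreated and 0.0563% to 0.0628% in LPS-treated libraries with serine, the opposite order.

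**Figure D1:**
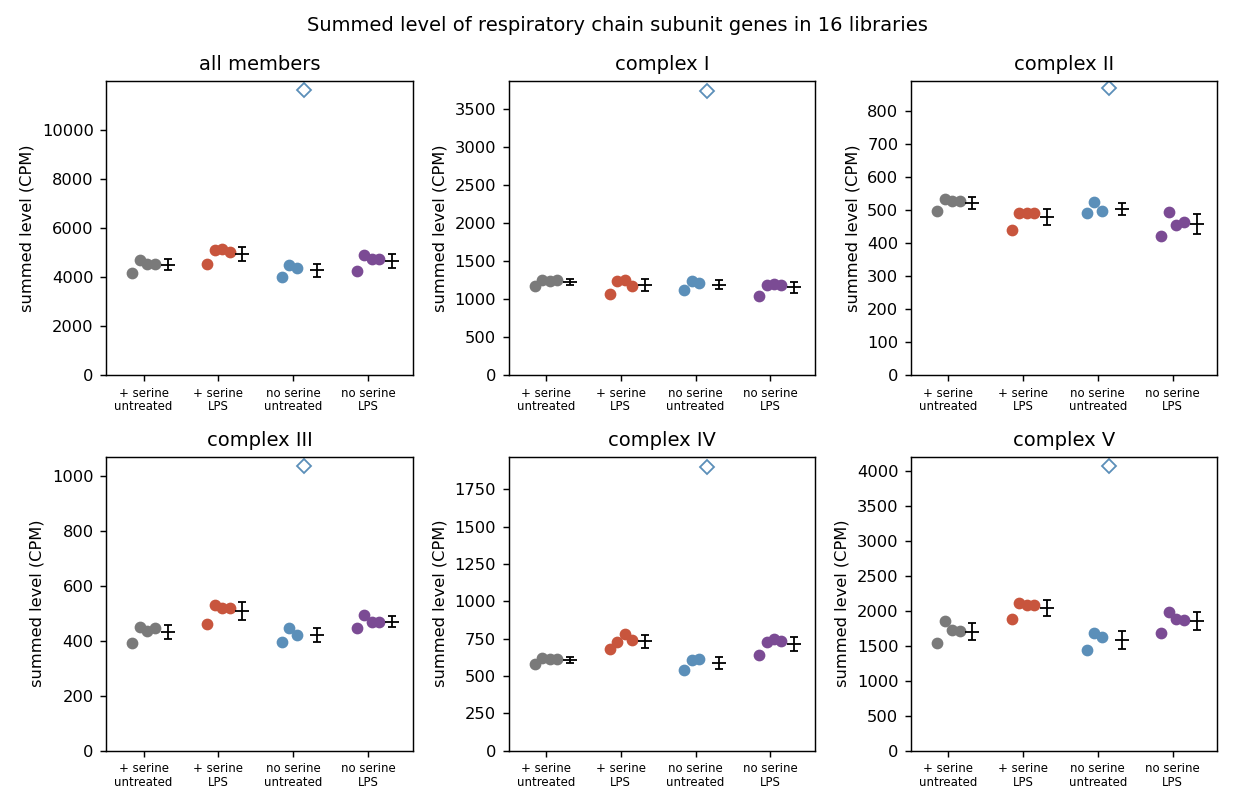
Summed TMM-scaled level (CPM) of all 82 genes and of each complex in the 16 libraries. Filled circles are libraries, the open diamond is the shallow library, and the bar beside each group is the mean ± SD of its filled circles (n = 4, or 3 for untreated cells without serine). The diamond lies above every circle in all 6 panels, and complex IV is higher with LPS than without it among the circles in both media.

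Of the 82 genes, 77 had counts high enough to be tested: 36 of complex I, 4 of complex II, 8 of complex III, 12 of complex IV and 17 of complex V. Ndufa4l2, Cox6b2, Cox7b2, Cox8b and Cox8c had 0 to 2 counts in every library and were not tested. Ndufa4l2 is a hypoxia-inducible relative of Ndufa4, and Cox6b2, Cox7b2 and Cox8c are forms known from testis. The muscle forms Cox6a2 and Cox7a1 were detected at low levels. Per kilobase of gene length, as the authors deposited it, the highest members in untreated cells with serine were Cox8a at 180.4 ± 10.4, Cox6b1 at 157 ± 8.17 and Ndufa4 at 119 ± 7.98 CPM per kilobase (SD, n = 4), whose spreads do not reach one another. The lowest tested members on that scale were Ndufb2 at 1.41 ± 0.165, Ndufb4 at 1.6 ± 0.56 and Atp5s at 1.78 ± 0.364 CPM per kilobase, which lie within their spreads. The deposited lengths exceed the coding lengths unevenly, at 545 against 207 bases for Cox8a and 7502 against 315 bases for Ndufb2. This ranking therefore depends on the annotated length and is not read as a ranking of expression. Many of these genes have processed pseudogenes elsewhere in the genome, so reads shared with a near-identical copy make their levels uncertain.

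In the shallow library the excess was broad but uneven among the members. For each gene its level there was divided by the mean of the other 3 libraries of its group, with 0.5 CPM added to both. The median log2 ratio was 1.59 over the 77 members, 72 of which were above 0 and 55 above 1, against a median of -0.13 over all 11004 genes tested, of which 44.1% were above 0 and 12.8% above 1. The same ratio for replicates 1, 2 and 3 of that group had member medians of -0.79, -0.70 and -0.71, since the shallow library is then in the denominator. The highest ratios were those of Atp5e, the small epsilon subunit of the central stalk, at 3.83, Ndufa2 at 3.43, Atp5h, a stator subunit, at 3.02 and Uqcrh, the hinge protein of complex III, at 2.59. The catalytic subunits Atp5b (-0.15) and Sdha (0.051), the iron-sulphur subunit Ndufs1 (-0.11) and the core protein Uqcrc2 (-0.84) were not raised there.

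The genes raised in the shallow library are mostly the short ones. Among the 77 members the ratio had a Spearman correlation of -0.49 with the longest coding length of the gene, and of -0.57 over 10544 genes tested that have a coding length, given as descriptions across genes that share the same libraries. Members with at most 300 coding bases (21 genes) had a median log2 ratio of 2.07, and the 7 members with 900 to 1500 and the 4 with 1500 to 3000 coding bases had medians of 0.65 and -0.031. Over all genes tested the medians in the same 3 length classes were 1.12, 0.024 and -0.42, and -0.96 above 3000 bases. The members are short as a set, with a median coding length of 411 bases against 1386 over all genes tested. In each class given here the members' median lay above that of all genes. What made the shallow library differ was not tested. Comparisons that include it are therefore given with all 16 libraries and with the other 15, and for LPS without serine the sign of several fold changes depends on it.

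**Figure D2:**
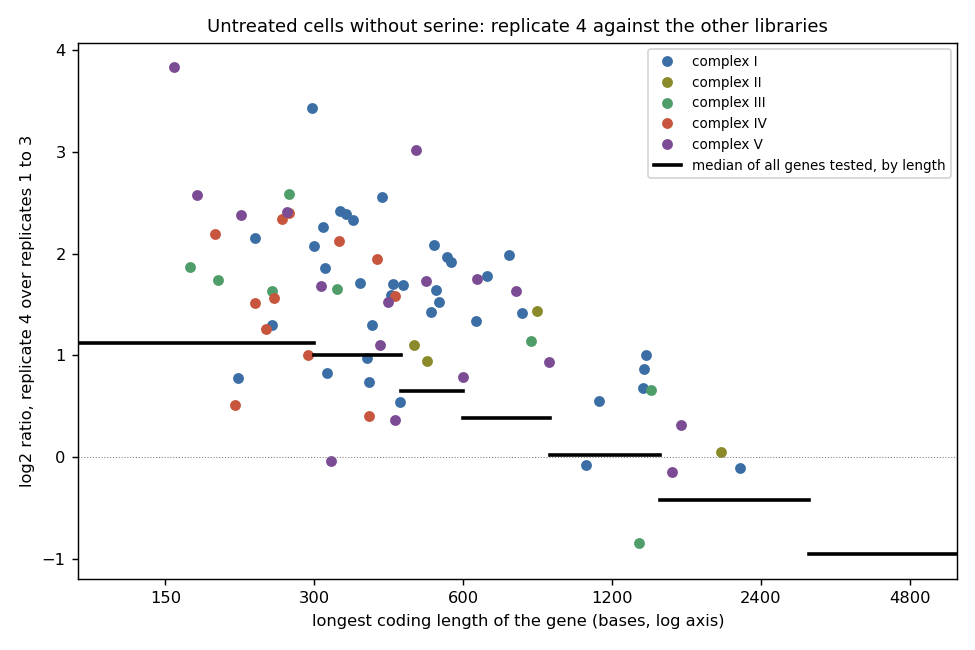
Log2 ratio of the shallow library (replicate 4, untreated without serine) to the mean of replicates 1 to 3 against the longest coding length in bases (log axis) for the 77 tested members, coloured by complex. Black bars are the medians of all genes tested in 7 length classes. Most members with short coding sequences lie above 1, the longest lie near 0, and the bars fall from left to right.

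LPS with serine was the first comparison, which asks how the respiratory chain genes responded to LPS in complete medium. Few members passed in the model of all 16 libraries: Uqcrfs1 and Atp5b rose and Ndufs1 and Atp5s fell (edgeR quasi-likelihood test, Benjamini-Hochberg adjusted p under 0.05 over all genes tested). Those are 2 of 77 higher and 2 of 77 lower, while 27.6% of all genes tested were higher and 28.2% lower, and the members' median log2 fold change was 0.074 against -0.029. The shallow library is not one of the 8 libraries compared here, but it enters the spread that all groups share. Without it the fold changes stayed nearly as they were and 18 members rose and 8 fell, with 33.1% and 33.9% of 11107 genes called. In this fit 9 of 12 complex IV genes rose and 0 fell, 3 of 8 rose in complex III, 5 of 17 rose and 1 fell in complex V, 1 of 36 rose and 6 fell in complex I, and 1 of 4 fell in complex II. With a block for replicate number, a fit in which same-numbered libraries are paired, 5 rose and 2 fell in all 16 libraries (29.7% and 30.7% of all genes), and 24 rose and 12 fell without the shallow one (36.5% and 37.5%).

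All directions here are relative to the TMM scale. Scaling to total counts moved the median of all genes by -0.615 with serine and -0.568 without it (log2), and on that scale 0 members rose and 41 fell with serine (15.1% and 58.2% of all genes) and 0 rose and 73 fell without it (15.3% and 59.7%). Relative to the median of all genes, the complex IV median was 0.33 with TMM and 0.33 with total-count scaling, and the complex I median -0.0047 and -0.0049, close to each other under both scalings. Complexes II, III and V stood at -0.0023, 0.23 and 0.20 relative to all genes with TMM.

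LPS without serine, the same question in medium that lacked serine, gave another picture in the 16-library model. There 1 member rose (Atp5b) and 18 fell, 12 of them in complex I, 1 each in complexes II and III and 4 in complex V, against 27.1% of all genes higher and 29.7% lower. The members' median was -0.49 against -0.12. Without the shallow library 15 rose and 8 fell (31.3% and 32.1% of all genes), the median was 0.039 against -0.046, and 8 of 12 complex IV genes were among those that rose. Of the 18 falls 7 remained (Ndufb10, Ndufb3, Ndufs8, Ndufv2, Ndufv3, Sdhb and Atp5s), Ndufs1 was added, and 11 were lost, among them Atp5e and Ndufa2, whose fold changes changed sign. The block gave 1 rise and 12 falls with all libraries (29.4% and 31.6% of all genes) and 20 rises and 12 falls without the shallow one (35% and 35.8%). The 18 falls became 38, 33 or 32 on leaving out replicate 1, 2 or 3 of the untreated group that lacked serine, and 7, 10, 11 or 9 on leaving out replicate 1, 2, 3 or 4 of its LPS-treated counterpart. These counts have no share of all genes beside them and only show how the number depends on single libraries.

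Without the shallow library the members that rose in one medium largely rose in the other. These comparisons share no library, but they share the estimate of the spread. Of the 18 rises with serine and the 15 without it, 14 are common to both: Uqcrfs1, Uqcrq, Cox5a, Cox5b, Cox6a1, Cox6b1, Cox6c, Cox7a2, Cox7c, Cox8a, Atp5b, Atp5f1, Atp5g3 and Atp5o. Of the 8 falls in each medium 6 are common to both: Ndufb10, Ndufb3, Ndufs1, Ndufs8, Sdhb and Atp5s. Over all genes 33.1% were higher and 33.9% lower with serine, and 31.3% and 32.1% without it. Their overlap between the media is not given here, so that of the members is not read as particular to them. The difference between the media itself passed for 0 of 77 members, as given with the withdrawals, which does not show that the responses were alike.

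**Figure D3:**
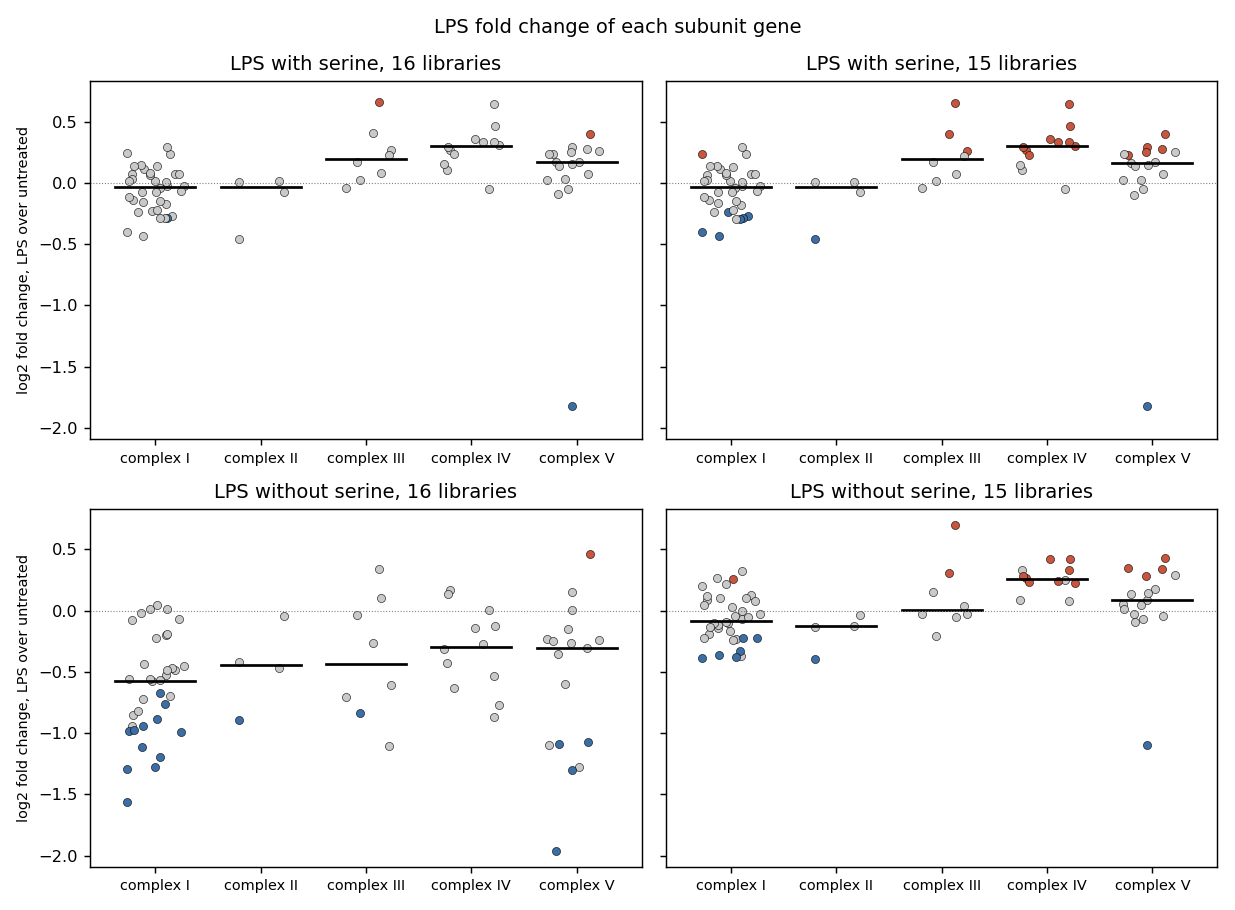
Log2 fold change of LPS over untreated cells for the 77 tested members by complex, with serine (upper row) and without (lower row), from all 16 libraries (left) and without the shallow library (right). Red points rose, blue points fell (edgeR adjusted p under 0.05), grey points passed no test, and black bars are medians per complex. With serine the points keep their place between the columns and only their colour differs, while without serine the whole set moves up when the shallow library is left out, and the complex IV median is the highest of the 5 in each panel.

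Complex I oxidises NADH. Ndufs1 (chromosome 1, 63143596 to 63176833, minus strand, mm10), its largest subunit, which carries iron-sulphur clusters, stood at 54.4, 54.8, 50.4 and 55.3 CPM in replicates 1 to 4 of the untreated cells with serine and at 42.6, 47.8, 43.2 and 42.7 CPM with LPS. Without serine it stood at 60.2, 61.8, 56.4 and 55 CPM, the last value being the shallow library's, and at 53.3, 53.1, 50.5 and 47.6 CPM with LPS. All LPS libraries lie below all untreated ones of their medium, and the shallow library is the lowest of its group by a small margin. Its log2 fold change was -0.28 ± 0.088 with serine (edgeR adjusted p = 0.0114) and -0.19 ± 0.088 without it (adjusted p = 0.071), and without the shallow library -0.29 ± 0.068 (adjusted p = 0.00145) and -0.22 ± 0.072 (adjusted p = 0.0142). Ndufs1 is long and well counted, and its fall with serine is the one call in complex I there that was made with and without the shallow library. Without serine it also passed with the block (adjusted p = 0.0477).

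Ndufb3, an accessory subunit of the membrane arm, showed how the shallow library enlarges a difference. Its levels were 17.9, 18.1, 17 and 19.5 CPM before and 14.6, 16.8, 11.3 and 12.1 CPM after LPS in the presence of serine. In the absence of serine they were 15.1, 16.2 and 17.2 CPM in replicates 1 to 3, 79.6 CPM in the shallow library and 11.7, 12.8, 12.5 and 12.3 CPM with LPS. The LPS libraries lie below all untreated ones in both media, with the shallow library several times above its group. Its log2 fold change without serine was -1.29 ± 0.42 (edgeR adjusted p = 0.0155) and -0.39 ± 0.12 without the shallow library (adjusted p = 0.0126), close to the -0.40 ± 0.12 with serine (adjusted p = 0.00577).

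Ndufa2, a small accessory subunit of the matrix arm, went the other way. It stood at 34, 37.6, 35.1 and 33 CPM in untreated cells and 40.2, 36.6, 47.4 and 40.9 CPM with LPS where serine was present. Where serine was absent it stood at 34.7, 33.5 and 34.6 CPM in the 3 deeper untreated libraries, 376 CPM in the shallow one and 41.3, 39.2, 39.8 and 37.2 CPM with LPS. The groups overlap with serine, and the LPS libraries without serine lie above replicates 1 to 3 and far below the shallow library. The log2 fold change was -1.56 ± 0.61 with all libraries (edgeR adjusted p = 0.0381) and 0.20 ± 0.087 without the shallow one (adjusted p = 0.0557), against 0.24 ± 0.081 with serine (adjusted p = 0.0154). With the block the values without serine were -0.98 (adjusted p = 0.173) and, without the shallow library, 0.22 (adjusted p = 0.0282).

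Of the other 33 tested complex I genes, those that fell without the shallow library were Ndufb10, a membrane arm subunit (-0.43 with serine and -0.37 without it), and Ndufs8, an iron-sulphur core subunit (-0.29 and -0.33), in both media. Their values without serine from all 16 libraries were -0.95 and -0.76. With serine Ndufa6 (-0.27) and Ndufa8 (-0.23) also fell, and without it the genes Ndufv2 (-0.22) and Ndufv3 (-0.38) fell and Ndufa1 (0.26) rose, where all 16 libraries gave -0.99, -0.67 and 0.043, the last not past the threshold. The NADH-binding subunit gene Ndufv1 had -0.074 and 0.031 and the core subunit gene Ndufs7 -0.22 and -0.24, neither past the threshold, though Ndufs7 passed with the block (edgeR adjusted p = 0.0189 and 0.0228). From all 16 libraries they had -0.23 and -0.88 without serine, and Ndufs7 passed (adjusted p = 0.0276). Leaving out the shallow library, the 36 genes ranged from -0.43 to 0.29 with serine and from -0.39 to 0.32 without it, with medians of -0.035 and -0.081. With all 16 libraries the range without serine was -1.56 to 0.043 and the median -0.57, against -0.12 over all genes.

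Complex II is built of 4 proteins, and of their genes only Sdhb passed a test without the block. Sdhb (chromosome 4, 140961203 to 140979193, plus strand), the iron-sulphur subunit, had 133, 116, 113 and 116 CPM in untreated cells with serine and 88.7, 85.3, 89.6 and 84.9 CPM with LPS. Cells without serine had 121, 111 and 109.9 CPM in replicates 1 to 3, 309.6 CPM in the shallow library and 91.3, 86.5, 83.7 and 85.4 CPM with LPS. The LPS libraries form a narrow band below every untreated library in both media. The log2 fold change of Sdhb with serine was -0.46 ± 0.25 (edgeR adjusted p = 0.137), or -0.46 ± 0.068 (adjusted p = 1.84e-05) without the shallow library, and without serine -0.90 ± 0.25 (adjusted p = 0.00643), or -0.39 ± 0.073 (adjusted p = 0.000189).

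Sdha, the flavoprotein that oxidises succinate, had 208, 249.6, 245 and 242 CPM in untreated and 194, 240.4, 222 and 241 CPM in LPS-treated cells with serine. It had 219, 255, 232 and 244 CPM in untreated and 196, 257, 232 and 234 CPM in LPS-treated cells without serine, all overlapping, with the shallow library in range and replicate 1, which had the most neutrophil marker RNA, the lowest in each group. Its fold changes were -0.076 ± 0.10 and -0.034 ± 0.10 without the shallow library (edgeR adjusted p = 0.506 and 0.785) and -0.074 and -0.047 with all 16 libraries.

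The membrane anchors Sdhc and Sdhd also overlapped between LPS and untreated cells with serine. Sdhc had 75.2, 94.2, 83 and 89.5 and 84.5, 90.1, 82.8 and 86.9 CPM with serine before and after LPS, 75.1, 86.2 and 77.7 CPM and, in the shallow library, 154 CPM without serine, and 70.9, 76.1, 65.8 and 77.6 CPM without serine and with LPS. Sdhd had 80.2, 75.8, 88.9 and 78.8 and 74.1, 76.2, 96.7 and 79.4 CPM with serine, 76.1, 73.8 and 76.9 CPM and, in the shallow library, 163 CPM without it, and 62.9, 74.7, 72.3 and 68.2 CPM without it and with LPS. Neither passed in an LPS comparison without the block, with -0.13 and -0.12 without serine once the shallow library was left out (edgeR adjusted p = 0.194 and 0.272) and -0.42 and -0.47 with all libraries (adjusted p = 0.0557 and 0.0611). With the block Sdhc passed at -0.15 without the shallow library (adjusted p = 0.0374) and -0.39 with it (adjusted p = 0.0412).

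Complex III passes electrons from ubiquinol to cytochrome c, and its Rieske iron-sulphur protein gene Uqcrfs1 (chromosome 13, 30540308 to 30545362, minus strand) had the largest rise of all members without the shallow library. Uqcrfs1 stood at 54.2, 55.1, 59.1 and 58.5 CPM in untreated cells with serine and at 82.5, 85.5, 93.5 and 96.6 CPM with LPS. With serine withheld it stood at 51.2, 60.6 and 58.3 CPM in replicates 1 to 3, at 125 CPM in the shallow library and at 89.2, 93.3, 91.4 and 94.5 CPM with LPS. All 8 LPS libraries lie above the 7 deeper untreated ones and below the shallow one. The log2 fold change was 0.66 ± 0.20 with serine (edgeR adjusted p = 0.0115) and 0.34 ± 0.20 without it (adjusted p = 0.17), and 0.66 ± 0.073 (adjusted p = 5.95e-07) and 0.70 ± 0.079 (adjusted p = 9.12e-07) without the shallow library.

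Uqcr10, a small accessory subunit, was called lower without serine only while the shallow library was included. Its levels with serine were 33.7, 35.3, 31.6 and 28 CPM before and 28.6, 33, 36.6 and 32.5 CPM after LPS, which overlap. Without serine they were 33.2, 32.1 and 32.8 CPM in the deeper untreated libraries, 111 CPM in the shallow one and 28.2, 30.7, 29 and 25.1 CPM with LPS. The fold change without serine went from -0.84 ± 0.31 (edgeR adjusted p = 0.0313) to -0.21 ± 0.10 (adjusted p = 0.0815) when the shallow library was left out, and was -0.73 (adjusted p = 0.0612) with the block. Among the other complex III genes, Uqcrq, a small accessory subunit gene, rose in both media without the shallow library (0.40 and 0.31), and Uqcrb rose with serine (0.26) and had -0.03 without it. Uqcrq and Uqcrb had -0.26 and -0.61 without serine when all 16 libraries were fitted, not past the threshold. The core proteins Uqcrc1 and Uqcrc2 had 0.17 and 0.076 with serine and did not pass (edgeR adjusted p = 0.147 and 0.479), though Uqcrc1 did with the block (adjusted p = 0.00639).

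Complex IV, cytochrome c oxidase, had the highest share of members that rose once the shallow library was left out, and 0 past the threshold in the 16-library model. Cox5a and Cox7a2 are shown because they had the smallest adjusted p and, with serine, the largest rise among the complex IV genes that rose in both media, a choice made after their values were seen. Cox5a stood at 60.3, 64, 59.1 and 61 CPM in untreated cells with serine and at 74, 76.3, 78.8 and 84.5 CPM with LPS, and Cox7a2 at 38.6, 38.3, 37.5 and 40.9 and 57.8, 52.3, 52 and 51.8 CPM. Without serine Cox5a stood at 58.8, 63.2 and 58 CPM in replicates 1 to 3, 181 CPM in the shallow library and 76.4, 76.8, 83.9 and 84.6 CPM with LPS. Cox7a2 there had 34.4, 42.9 and 42.4 CPM, 119 CPM and 47, 59.6, 51.6 and 55.3 CPM in the same order. For both genes every LPS library lies above every untreated library except the shallow one. Without the shallow library Cox5a rose by 0.36 ± 0.067 with serine (edgeR adjusted p = 0.000169) and 0.42 ± 0.072 without it (adjusted p = 8.13e-05), and Cox7a2 by 0.46 ± 0.088 (adjusted p = 0.000214) and 0.42 ± 0.10 (adjusted p = 0.00105). With all 16 libraries the values without serine turned sign, to -0.14 ± 0.27 for Cox5a and -0.12 ± 0.28 for Cox7a2 (adjusted p = 0.671 and 0.716), and with serine they were 0.36 and 0.46 (adjusted p = 0.287 and 0.17).

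The remaining complex IV genes that rose in both media without the shallow library were Cox5b (0.27 with serine and 0.27 without), Cox6a1 (0.23 and 0.23), Cox6b1 (0.31 and 0.22), Cox6c (0.34 and 0.25), Cox7c (0.33 and 0.33) and Cox8a (0.29 and 0.28), the small nuclear subunits that surround the catalytic core. With all 16 libraries the values without serine were negative for Cox6a1 (-0.63), Cox6b1 (-0.77), Cox6c (-0.27) and Cox7c (-0.54) and positive for Cox5b (0.17) and Cox8a (0.14), none past the threshold. The muscle form Cox7a1, with only 5 to 27 counts per library, rose with serine (0.64, edgeR adjusted p = 0.0416) and had 0.078 without it (-0.87 with all 16 libraries). Cox7b and Cox6a2 passed in neither medium (0.15 and -0.051 with serine). Over the 12 tested genes, without the shallow library, the median was 0.30 with serine and 0.26 without it, or 0.33 and 0.31 relative to all genes tested, where total-count scaling gives 0.33 and 0.31. With all 16 libraries the median was 0.30 with serine and -0.29 without it, or -0.17 relative to all genes in the latter, so its direction without serine rests on the shallow library.

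Cox7a2l, known to join complexes III and IV into a supercomplex and to be shortened in C57BL/6 mice, differed between replicate numbers. It had 68.8, 85.5, 94.3 and 99.9 CPM in replicates 1 to 4 of the untreated cells with serine and 77.7, 81.7, 121 and 95 CPM with LPS. In the medium without serine it had 68.8, 83.5, 95.7 and 319 CPM, the last in the shallow library, and 78.5, 102, 117 and 119.7 CPM with LPS. Replicate 1, in which the neutrophil markers were highest, was the lowest library of each group, and groups overlapped in both media. Its fold changes without the shallow library were 0.11 ± 0.16 and 0.33 ± 0.18 (edgeR adjusted p = 0.587 and 0.114), and with the block as well it passed without serine at 0.27 ± 0.076 (adjusted p = 0.00359). Its value without serine from all 16 libraries was -0.43 (adjusted p = 0.33), of the opposite sign.

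Complex V, the ATP synthase, was led by Atp5b (chromosome 10, 128083273 to 128090391, plus strand), the catalytic beta subunit. Atp5b was at 448, 539.8, 471 and 464 CPM in untreated cells with serine and 642, 669.5, 607 and 621 CPM with LPS. Without serine it was at 430.0, 509.5, 449.9 and 417 CPM, the shallow library last, and at 605, 698, 598 and 588 CPM with LPS. All 8 LPS libraries lie above all 8 untreated ones. The log2 fold change was 0.40 ± 0.10 with serine (edgeR adjusted p = 0.00341) and 0.46 ± 0.10 without it (adjusted p = 0.0012), and 0.40 ± 0.084 (adjusted p = 0.000495) and 0.43 ± 0.091 (adjusted p = 0.000657) without the shallow library. With total-count scaling its fold change was -0.21 and -0.11, above the shift of all genes in both media.

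Atp5e, the smallest tested member by coding length, shows the largest effect of the shallow library. It stood at 57.2, 60.4, 58.6 and 56.1 CPM in untreated cells with serine and at 56.9, 61.6, 81.3 and 61.1 CPM with LPS. Without serine it stood at 53.6, 52.3 and 51.2 CPM in replicates 1 to 3, 753 CPM in the shallow library and 55.7, 56.5, 61.5 and 56.7 CPM with LPS. The LPS libraries without serine lie above the 3 deeper untreated ones. The fold change without serine was -1.96 ± 0.68 (edgeR adjusted p = 0.0218) with all libraries and 0.14 ± 0.10 (adjusted p = 0.24) without the shallow one, and with the block -1.23 (adjusted p = 0.136) and 0.15 (adjusted p = 0.135).

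Atp5s, also known as Dmac2l and named for a coupling factor of the synthase, had the largest fall of all members with serine and, without the shallow library, in both media, but it has few reads, 2 to 24 counts per library. It had 2.12, 2.25, 3.02 and 3.2 CPM in untreated and 0.298, 1.21, 1.02 and 0.403 CPM in LPS-treated cells with serine, which do not overlap. Without serine it had 1.59, 1.98, 2.82 and 4.05 CPM, the shallow library last, and 1.22, 0.694, 0.374 and 1.56 CPM with LPS, where the highest LPS library comes just under the lowest untreated one. The fold change was -1.82 ± 0.44 (edgeR adjusted p = 0.00206) and -1.30 ± 0.43 (adjusted p = 0.0173), or -1.82 ± 0.41 and -1.10 ± 0.42 (adjusted p = 0.000926 and 0.0306) without the shallow library.

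Of the other 14 tested complex V genes, the stalk and membrane subunit genes Atp5f1 (0.23 with serine and 0.35 without), Atp5g3 (0.25 and 0.28) and Atp5o (0.28 and 0.34) rose in both media without the shallow library. The shallow library included, their values without serine were -0.25, -0.26 and -0.30, of the opposite sign and not past the threshold. Atp5g3 is 1 of the 3 genes for subunit c, which forms the rotating ring. The others, Atp5g1 and Atp5g2, had -0.10 and -0.052 with serine and passed no test. The central stalk genes Atp5c1 and Atp5d had 0.021 and 0.028. The alpha subunit gene Atp5a1 rose with serine (0.29 ± 0.12, edgeR adjusted p = 0.034, or 0.00715 with the block in all 16 libraries) and had 0.088 ± 0.13 without it (adjusted p = 0.555), against 0.29 (adjusted p = 0.0796) and 0.0035 with all 16 libraries.

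Ndufa4 and its paralogue AA467197 (also called Nmes1, the mouse counterpart of C15orf48) parted widely. Ndufa4 stood at 63.8, 58.3, 57.6 and 54.3 CPM in untreated cells and 55.7, 59.7, 60.3 and 54.4 CPM with LPS where serine was present, and where it was absent at 54.4, 57.2 and 54.1 CPM in replicates 1 to 3, 136 CPM in the shallow library and 50.1, 59.8, 55.1 and 52 CPM with LPS. Outside the shallow library these values overlap, and its fold changes without that library were -0.025 ± 0.073 and -0.026 ± 0.079 (edgeR adjusted p = 0.777 and 0.788), against -0.023 and -0.45 with it (adjusted p = 0.943 and 0.104). AA467197 went from 2.32, 3.69, 2.51 and 2.23 CPM to 290.0, 289, 358 and 301 CPM with serine and from 3.27, 4.95, 3.46 and 7.76 CPM to 235, 279, 324 and 263 CPM without it. Its log2 fold changes of 6.83 ± 0.25 and 5.93 ± 0.24 (edgeR adjusted p = 2.85e-12 and 9.27e-12) exceed those of all members, and without the shallow library they were 6.82 ± 0.17 and 6.14 ± 0.19. The encoded protein is known to take the place of NDUFA4 in complex IV.

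**Figure D4:**
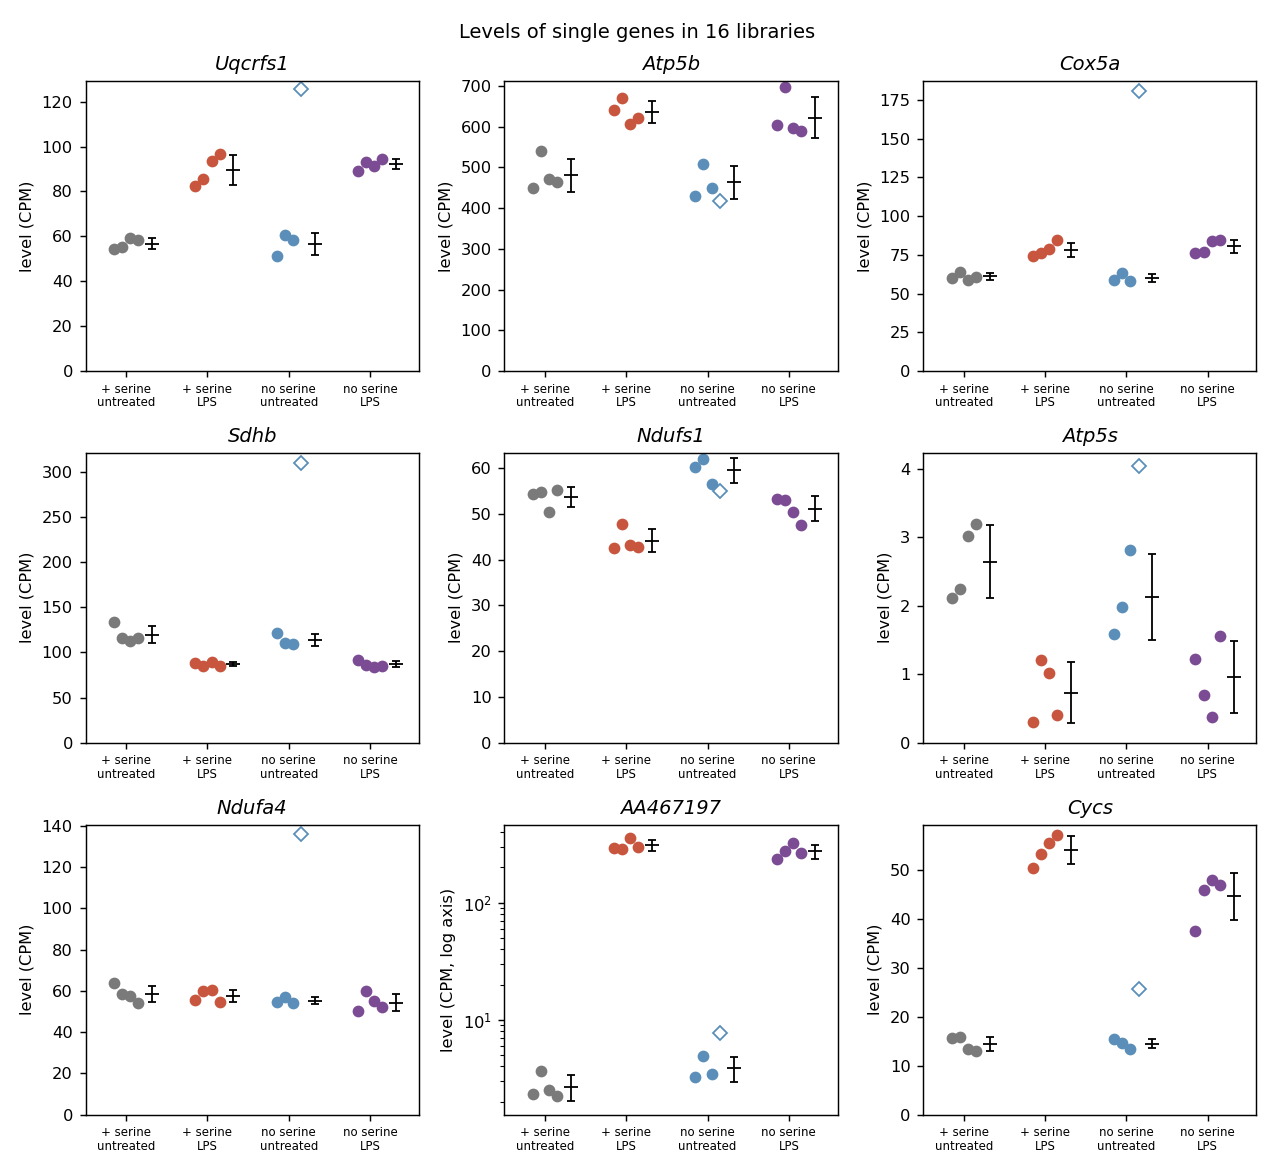
Levels (CPM, TMM-scaled) of 9 genes in the 16 libraries: 7 subunit genes, the Ndufa4 paralogue AA467197 (log axis) and the cytochrome c gene Cycs. Filled circles are libraries, the open diamond is the shallow library, and bars are mean ± SD of the filled circles. Uqcrfs1, Atp5b, Cox5a, AA467197 and Cycs are higher and Sdhb and Ndufs1 lower with LPS in both media among the circles, and Ndufa4 stays in one range.

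Few members passed on serine withdrawal. Its comparisons use the libraries of the LPS comparisons again, so their values are not independent of those above. In untreated cells 0 of 77 passed in either direction, as did 0 of 11004 genes (0% higher and 0% lower, edgeR), with 14 members and 548 genes at an unadjusted p under 0.05, and DESeq2 called 0 members. With the block 0 members passed while 0.0818% of all genes were higher and 0% lower, and without the shallow library as well 0 passed against 0.63% and 0.081%. The members' median was 0.51 with 70 of 77 positive, and without the shallow library -0.055 with 16 of 77 positive and 1 at an unadjusted p under 0.05, so the sign of the median rests on that library. All genes had medians of 0.012 and 0.0059. Atp5e had the smallest p, at 1.95 ± 0.68 (adjusted p = 0.816), and -0.15 ± 0.10 without the shallow library.

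In LPS-treated cells the withdrawal comparison does not involve the shallow library, and 0 members passed with all libraries (all genes 0.0545% higher and 0.00909% lower, 2 members at an unadjusted p under 0.05, 0 members by DESeq2). Without the shallow library 0 passed and 12 had an unadjusted p under 0.05, with 1.01% and 0.396% of all genes called. Atp5a1 had the smallest p. Its levels were 452, 561, 535 and 538 CPM with serine and 309.6, 426, 404 and 402 CPM without it, replicates 1 to 4, lower without serine in 4 of 4 replicate pairs. In untreated cells they were 365, 463, 427 and 446 and 304, 394, 390.2 and 451 CPM. The log2 fold change with LPS was -0.44 ± 0.14 (edgeR adjusted p = 0.369), or -0.44 ± 0.12 (adjusted p = 0.0778) without the shallow library, and it passed with the block at -0.44 ± 0.083 (adjusted p = 0.0271).

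With the block and without the shallow library 5 members fell on withdrawal in LPS-treated cells and 1 rose, while 3.32% of all genes fell and 4.98% rose. The falls were Atp5a1 (-0.44 ± 0.047, edgeR adjusted p = 1.01e-05), Uqcrh (-0.29 ± 0.062), Sdhc (-0.25 ± 0.059), Uqcr11 (-0.32 ± 0.094) and Uqcrb (-0.29 ± 0.086), the last 4 with adjusted p from 0.00553 to 0.0443, and Ndufs1 rose (0.21 ± 0.064, adjusted p = 0.0466). The same genes on withdrawal in untreated cells had -0.21, -0.033, -0.081, -0.28, -0.027 and 0.14 in that fit, none past the threshold.

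The difference between the withdrawals, which is also the difference between the LPS responses of the media, was past the threshold for 0 of 77 members and 0 genes (0% and 0%), with 1 member at an unadjusted p under 0.05 and 0 members called by DESeq2. Without the shallow library again 0 members and 0 genes passed, with 1 member at an unadjusted p under 0.05, and with the block as well 0 members passed against 0.036% of all genes higher and 0.036% lower. The members' median of this difference was -0.53 with all libraries and -0.0015 without the shallow one. The common dispersion corresponds to a coefficient of variation between libraries of 20.9% with it and 14.1% without it.

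The pathway around the subunits was followed in lists whose members lie outside the pattern. Cycs, cytochrome c, rose more than any tested subunit, from 15.6, 15.8, 13.3 and 13.1 to 50.5, 53.2, 55.6 and 57.1 CPM with serine. Without serine Cycs went from 15.4, 14.6, 13.5 and 25.6 CPM, the last being the shallow library, to 37.4, 45.9, 48 and 47 CPM. The LPS libraries are above all untreated ones, with fold changes of 1.90 ± 0.17 and 1.41 ± 0.17 (edgeR adjusted p = 4.73e-08 and 1.94e-06). Without the shallow library the value without serine was 1.61. With serine it stayed between 1.86 and 1.94 when any single library was left out. In the list of 17 electron carriers and ubiquinone synthesis genes, 4 rose and 8 fell with serine, and 3 rose and 7 fell without it (5 and 9, and 5 and 5, without the shallow library). Pdss1, a subunit of the enzyme that makes the ubiquinone side chain, rose (2.87 and 2.35) as did Coq10b (1.32 and 1.19), while Coq8a (-1.84 and -1.68), Coq10a (-1.76 and -1.45), Coq9 (-1.15 and -1.35) and the dehydrogenase gene Etfdh (-0.85 and -0.99) fell. Pdss1 had only 2 to 26 counts in the untreated libraries.

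Among assembly factors, which build the complexes without being part of them, several fold changes were above 1 in size. The counts here read against the shares of all genes called, which are given with each LPS comparison, and the medians against -0.029 and -0.12 over all genes. Each gene named in this paragraph and those on carriers and regulators as having risen or fallen also passed without the shallow library. Unless stated, the fold changes and medians in these paragraphs are from all 16 libraries, so the sizes without serine include the shallow one. Of 17 tested complex I assembly genes 7 fell and 0 rose with serine, and 8 fell and 1 rose without it (2 rose and 8 fell, and 1 rose and 7 fell, without the shallow library), with medians of -0.37 and -0.63. Tmem126b (-1.94 and -1.79), Ecsit (-1.35 and -1.33) and Ndufaf7 (-1.21 and -1.60) fell in both media. Of 21 tested complex IV assembly genes 5 rose and 4 fell with serine and 5 rose and 7 fell without it (6 and 5, and 6 and 6, without the shallow library). Sco1, a copper chaperone, rose (1.70 and 1.82), as did Coa5 (1.64 and 1.49), and Coa6 fell (-1.44 and -1.89). In complex II assembly 2 of 4 fell with serine and 3 of 4 without it (3 in both media without the shallow library). In complex III assembly 3 of 5 fell and 1 rose with serine, and 4 fell and 1 rose without it, with all 16 libraries. The largest falls were in Bcs1l, whose protein inserts the Rieske protein, with serine (-1.74, and -1.07 without it) and in Uqcc3 without it (-2.12, and -1.14 with it). Uqcc3 had 203 counts in the shallow library against 108 to 191 in replicates 1 to 3, whose totals are larger. Its -2.12 therefore rests in part on that library and is not read as a difference between the media. The same holds for Ndufaf7, with 48 counts there against 47 to 74, and for Coa6, with 55 against 59 to 93. Both ATP synthase assembly genes, Atpaf1 (-0.74 and -1.46) and Atpaf2 (-0.53 and -0.71), fell in both media.

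Atpif1, which encodes the inhibitor of the ATP synthase, had 69.4, 78, 70.8 and 72.1 and 67.7, 83.2, 80.8 and 80.9 CPM with serine before and after LPS. Without serine it had 61.9, 72.2, 63.6 and 149 CPM, the shallow library last, and 55.7, 75.9, 69 and 82 CPM, overlapping in both media, and its fold changes were 0.10 ± 0.10 and 0.10 ± 0.11 without that library (edgeR adjusted p = 0.397 and 0.464) and 0.11 and -0.28 with it. Cox4i1, the largest nuclear subunit of complex IV, which the pattern leaves out, had 199, 249, 247 and 242 and 229.5, 278, 316 and 302 CPM with serine and 197, 239, 242 and 963 and 229.9, 294, 291 and 285 CPM without it. Replicate 1, with the highest neutrophil markers, was low in each group, and the fold changes without the shallow library were 0.26 ± 0.11 and 0.28 ± 0.12 (edgeR adjusted p = 0.0522 and 0.0563), past the threshold with the block as well (adjusted p = 0.000121 and 0.000395). With all 16 libraries Cox4i1 had 0.26 with serine and -0.57 without it (adjusted p = 0.58 and 0.198), and with the block -0.36 without it (adjusted p = 0.351). Ndufab1, the acyl carrier subunit of complex I, had -0.34 ± 0.23 and -0.57 ± 0.23 (edgeR adjusted p = 0.231 and 0.0454), or -0.34 ± 0.14 and -0.26 ± 0.14 (adjusted p = 0.0357 and 0.126) without the shallow library.

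Of 13 tested regulators of mitochondrial gene expression 6 rose and 2 fell with serine, and 5 rose and 2 fell without it (7 and 2 in both media without the shallow library). Ppargc1b, a coactivator of mitochondrial biogenesis, had 1.11, 1.23, 2.01 and 0.696 CPM in untreated and 3.13, 5.01, 2.54 and 4.84 CPM in LPS-treated cells with serine, and 0.956, 1.58, 1.28 and 1.35 and 2.74, 3.64, 3.18 and 3.51 CPM without it, with no overlap in either medium. Its fold changes were 1.59 ± 0.30 and 1.34 ± 0.32 (edgeR adjusted p = 0.000284 and 0.00175). Leaving out any single library gave 1.42 to 1.88 with serine and 1.18 to 1.49 without it. Ppargc1b had only 4 to 29 counts per library. Nrf1, whose motif is shown above, rose by 0.63 and 0.71, the GABP subunit genes Gabpa by 0.81 and 0.90 and Gabpb1 by 1.65 and 1.45, and Esrra by 0.71 and 0.66. Twnk, the mitochondrial DNA helicase gene, fell (-2.34 and -1.93), as did Polrmt, the mitochondrial RNA polymerase gene (-0.64 and -0.95).

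Of the 13 subunits encoded in mitochondrial DNA 7 were tested, and mt-Co2, mt-Co3, mt-Atp6, mt-Atp8, mt-Nd3 and mt-Nd4l had 0 to 2 counts in every library of the deposited table, so their levels are not interpreted. With serine 0 of the 7 passed, with fold changes from -0.054 to 0.10. Without serine mt-Co1, the catalytic subunit of complex IV, rose (0.60 ± 0.23, edgeR adjusted p = 0.0341), or 0.38 ± 0.16 (adjusted p = 0.0456) without the shallow library, and with the block and without that library 5 of the 7 rose. In the shallow library the median log2 ratio of these 7 genes was -1.07, opposite in sign to that of the nuclear members, with a range from -1.33 to 1.82. The 20 genes of mitochondrial import, channels, carriers and dynamics, given for comparison, had 3 rises and 1 fall with serine and 3 rises and 2 falls without it (5 and 2 in both media without the shallow library), with medians of 0.021 and -0.11.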

How the data were processed

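Reads of 16 libraries were turned into gene counts by the authors, and the deposited counts are whole numbers per gene and library. The submitters' processing notes list the build mm10 and, with no role or order, edgeR, HTSeq, SAMtools, STAR and Trimmomatic 0.33. The kit named in the labels' protocols (NEBNext Ultra RNA) does not mark strand, so genes that overlap on opposite strands cannot be separated. Near-identical copies are a separate limit, since their reads share the same sequence. A further 24 per-sample columns were not used. Samples were grouped by their labels.

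The counts were tested with edgeR 4.0.16 (limma 3.58.1, R 4.3.3): genes were filtered by edgeR's default rule (minimum count 10, minimum total 15), scaled by TMM, and fitted by quasi-likelihood over all 4 groups, with 5 comparisons and Benjamini-Hochberg adjustment over the 11004 genes tested and a threshold of 0.05. The fit was tested on simulated data. Alternatives were DESeq2 1.42.0, its size factors, total-count scaling, no filter, the 2 groups compared alone, each library left out and the replicate number as a block. Total-count scaling and the 2-group fit, each leaving out replicate 4 of the untreated group that lacked serine, were added after seeing the data. Levels are given as TMM-scaled CPM, and the ratio of that replicate to its group uses 0.5 CPM added to both. Sequences are from RefSeq, GRCm38.p6.

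Over all genes, libraries with the same replicate number deviated from their groups together, with correlations of 0.108 to 0.735 between compared groups (16 of 16 above 0.1) and -0.441 to 0.216 for different numbers. The numbers were therefore taken to pair the libraries in the fits with the block. The main fit, from which calls are given unless the block is named, does not use this pairing. No 2 of the 120 library pairs agreed within sampling noise (lowest chi-square per degree of freedom 2.04).

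The members and gene lists were chosen with earlier results of these data known. Values in every library are given for the members with the largest rises and falls past the threshold in each complex and LPS comparison (2 each), for the member with the smallest p in each other comparison, and for fixed genes (Ndufa4, the Sdh genes, Cox7a2l, Uqcrfs1, Ndufs1, Atp5b, AA467197, Cox4i1, Cycs, Atpif1 and Ppargc1b). Figures were drawn with matplotlib 3.10.9.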

Additional observations from a re-analysis of the deposited data

Results flagged for a closer look

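Levels of the genes given by library, and the sums by complex, were searched for a library far from the other 3 of its group by Dixon's criterion, the gap to the nearest library relative to the range of the group. Chance flags about 1 in 20 groups, and 104 were examined.

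Most of those found are the shallow library, replicate 4 of the untreated cells without serine. In CPM, it stood above the other 3 libraries for Uqcrfs1 (125, others 51.2 to 60.6), Ndufa2 (376, others 33.5 to 34.7), Ndufb3 (79.6, others 15.1 to 17.2), Sdhb (309.6, others 109.9 to 121), Uqcr10 (111, others 32.1 to 33.2) and Atp5e (753, others 51.2 to 53.6). It also did so for Ndufa4 (136, others 54.1 to 57.2), Sdhc (154, others 75.1 to 86.2), Sdhd (163, others 73.8 to 76.9), Cox7a2l (319, others 68.8 to 95.7), Cox4i1 (963, others 197 to 242), Cycs (25.6, others 13.5 to 15.4) and Atpif1 (149, others 61.9 to 72.2). The summed levels there were high for all members (11609, others 3978 to 4485), complex I (3735, others 1118 to 1231), complex II (869.9, others 492 to 526), complex III (1038, others 394 to 446), complex IV (1901, others 538 to 613) and complex V (4066, others 1437 to 1677). What made this library differ was not tested.

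The others are smaller, and 9 of these 11 are replicate 1, in which neutrophil markers were highest, at 92.2 to 145 CPM against 10.75 to 34.7 CPM elsewhere, a part that was not tested. Ndufs1 was 47.8 CPM in replicate 2 of the LPS-treated group with serine, against 42.6 to 43.2 CPM in the other 3. Atp5b was 698 CPM in replicate 2 of the LPS-treated cells without serine, against 588 to 605 CPM in the other 3. Sdhb was 133 CPM in replicate 1 of the untreated cells with serine, against 113 to 116 CPM in the other 3. Cox4i1 was 199 CPM in replicate 1 of the untreated cells with serine, against 242 to 249 CPM in the other 3. Cox4i1 was 229.9 CPM in replicate 1 of the LPS-treated cells without serine, against 285 to 294 CPM in the other 3. Atpif1 was 67.7 CPM in replicate 1 of the LPS-treated group with serine, against 80.8 to 83.2 CPM in the other 3. The sum of complex I was 1043 CPM in replicate 1 of the LPS-treated cells without serine, against 1179 to 1193 CPM in the other 3. The sum of complex II was 441 CPM in replicate 1 of the LPS-treated group with serine, against 491 to 492 CPM in the other 3. The sum of complex III was 462 CPM in replicate 1 of the LPS-treated group with serine, against 521 to 531 CPM in the other 3. The sum of complex IV was 641 CPM in replicate 1 of the LPS-treated cells without serine, against 730.5 to 749 CPM in the other 3. The sum of complex V was 1876 CPM in replicate 1 of the LPS-treated group with serine, against 2076 to 2112 CPM in the other 3.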

How the results depend on the processing

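The shallow library, replicate 4 of the untreated cells without serine, decides most counts. In the LPS comparison with serine the members that rose numbered 2 to 18 and those that fell 2 to 8 when single libraries were left out, and without serine 1 to 15 rose and 7 to 38 fell. For the withdrawals and their difference these counts were 0 to 0. With the replicate block 5 rose with serine, and 1 member fell on withdrawal in LPS-treated cells; without the shallow library as well, 24 rose and 12 fell with serine, 20 rose without it, and 1 rose and 5 fell on withdrawal in LPS-treated cells. The block also moved the calls of Atp5a1, Atp5e, Ndufa2, Ndufs1 and Uqcr10, as given with them.

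In fits of the 2 groups alone 18 rose and 9 fell with serine and 2 fell without it, or 10 rose and 7 fell without the shallow library. With no filter on low counts 1 fell with serine and 5 without. Shares of all genes are not given for these settings, nor for single libraries left out other than the shallow one. Those counts only compare settings. Total-count scaling gave 0 rises in both media and 41 falls with serine and 73 without it. Without the shallow library it gave 0 and 71 with serine and 0 and 68 without it. Of all genes, 17.2% rose and 65.4% fell there with serine, and 16% and 65.4% without it. Total-count scaling moves every gene of a library by the same amount. On that scale Atp5a1 (-0.32 and, without the shallow library, -0.32), Atp5b (-0.21 and -0.21) and Ndufa2 (-0.38 and -0.38) changed sign with serine, and Atp5b (-0.11 and -0.20) and Uqcrfs1 (-0.19) without it. Without the shallow library, and also with the block or in 2 groups, Atp5e (0.14, 0.15 and 0.13) and Ndufa2 (0.20, 0.22 and 0.19) changed sign without serine, where leaving out single libraries gave -2.29 to 0.14 for Atp5e and -1.88 to 0.20 for Ndufa2. For other changes the cause was not tested. DESeq2 and its size factors kept each count of calls within 1.5 times. Low depth limits Atp5s most, with 2 to 24 counts per library.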
